A study of Mus musculus with 2 samples.

Results

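The level of 47 vascular endothelial genes was measured in interscapular brown adipose tissue (iBAT) of mice labelled as lacking *Mettl3* in brown fat (BKO) and of their floxed controls. The 47 genes are known markers of the cells that line vessels, taken by name, and each was found once by its Ensembl identifier among the 52768 genes of the tables. They were divided by textbook knowledge into 27 pan-endothelial, 5 capillary, 6 arterial, 7 venous and 2 lymphatic genes. BKO mice (C57BL/6, 8 weeks old) carried METTL3flox/flox alleles and a UCP1-iCre transgene (+/-), and flox/flox mice of the same strain and age carried METTL3flox/flox alone, so the floxed alleles are common to both. *Mettl3* encodes the enzyme that writes N6-methyladenosine on mRNA. The driver acts in cells that transcribe *Ucp1*, that is brown adipocytes, and not in endothelial cells, where the alleles were not meant to be cut. Each genotype is 1 sequenced library that pools 4 mice, so there are 2 libraries in all and no replicates.

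Endothelial cells line all vessels and bind to one another through adherens and tight junctions. Their identity is held by ETS and SOXF transcription factors, and angiopoietin, Notch, ephrin and apelin signals shape the vessel tree. Arteries, capillaries, veins and lymphatics each carry further genes of their own, such as gap junction proteins in arteries and adhesion molecules for leukocytes in venules. Brown fat is densely supplied with capillaries, which bring fuel and oxygen and carry off heat.

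Values are FPKM, the fragments counted in a gene scaled to exon length and to the size of the library, which can be compared between genes. The library labelled BKO held 20224258 fragments in genes and the flox/flox library 18933004. *Mettl3*, the targeted gene, was at 2.38 FPKM in the library labelled BKO and 1.80 FPKM in the flox/flox library, 1.32-fold higher (1.08 to 1.62), opposite to a deletion. This value covers the whole gene in all cells and not the floxed exons alone, so it does not check the label, and every direction given here follows the label as deposited. *Ucp1*, the uncoupling protein of brown fat, was at 537 FPKM in the library labelled BKO and 3164 FPKM in the flox/flox library. Folds are FPKM of the library labelled BKO over FPKM of the flox/flox library, or the inverse where called lower, and the range in parentheses after each is an exact 95% interval from the fragments of the gene. These intervals cover counting error only, on the deposited scale, and not the spread between mice or the choice of scaling. No p-value is given. FPKM are relative to the whole library. In bulk tissue, fewer endothelial cells, less RNA per endothelial cell and more RNA from other cells therefore cannot be told apart.

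Most endothelial genes were lower in the library labelled BKO, while *Plvap* and some venular genes were higher. A fold of 1.5 to 2.5 lower was found for 28 of the 42 above the filter described next, against 10.5% of all genes, and under TPM for 20, against 5.02%. This range lies around the median of the endothelial genes themselves, so these shares describe the genes and are no test. Of the 47 genes, 42 averaged 1 FPKM or more across the pair of libraries, and all of these reached 1 FPKM in each library. 18 of the 42 were at least 2-fold lower, where 5.91% of the 12205 genes above this filter were, and 1 was at least 2-fold higher, where 11.0% of all genes were. A log2 ratio below 0 was found for 39 of the 42, against 48.3% of all genes. The median log2 ratio, taken after adding 0.1 FPKM to both values, was -0.91 for the endothelial genes and 0.019 for all genes above the filter. Fragments were determined for 40 of the 42 genes, and the counting interval lay below a ratio of 1 for 33 of them, above 1 for 3 and across 1 for 4. Over all genes, 32.1% lay below and 36.5% above. For 7 genes (*Cdh5*, *Tie1*, *Egfl7*, *Ushbp1*, *Car4*, *Btnl9* and *Aplnr*) the whole interval was beyond 2-fold lower, as it was for 2.59% of all genes. These interval counts hold on the deposited scale only and were not made under another scaling. Under TPM, *Tie1*, *Egfl7*, *Ushbp1* and *Car4* were 1.84-, 1.74-, 1.95- and 1.74-fold lower, and *Cdh5*, *Btnl9* and *Aplnr* remained at least 2-fold lower.

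**Figure D1:**
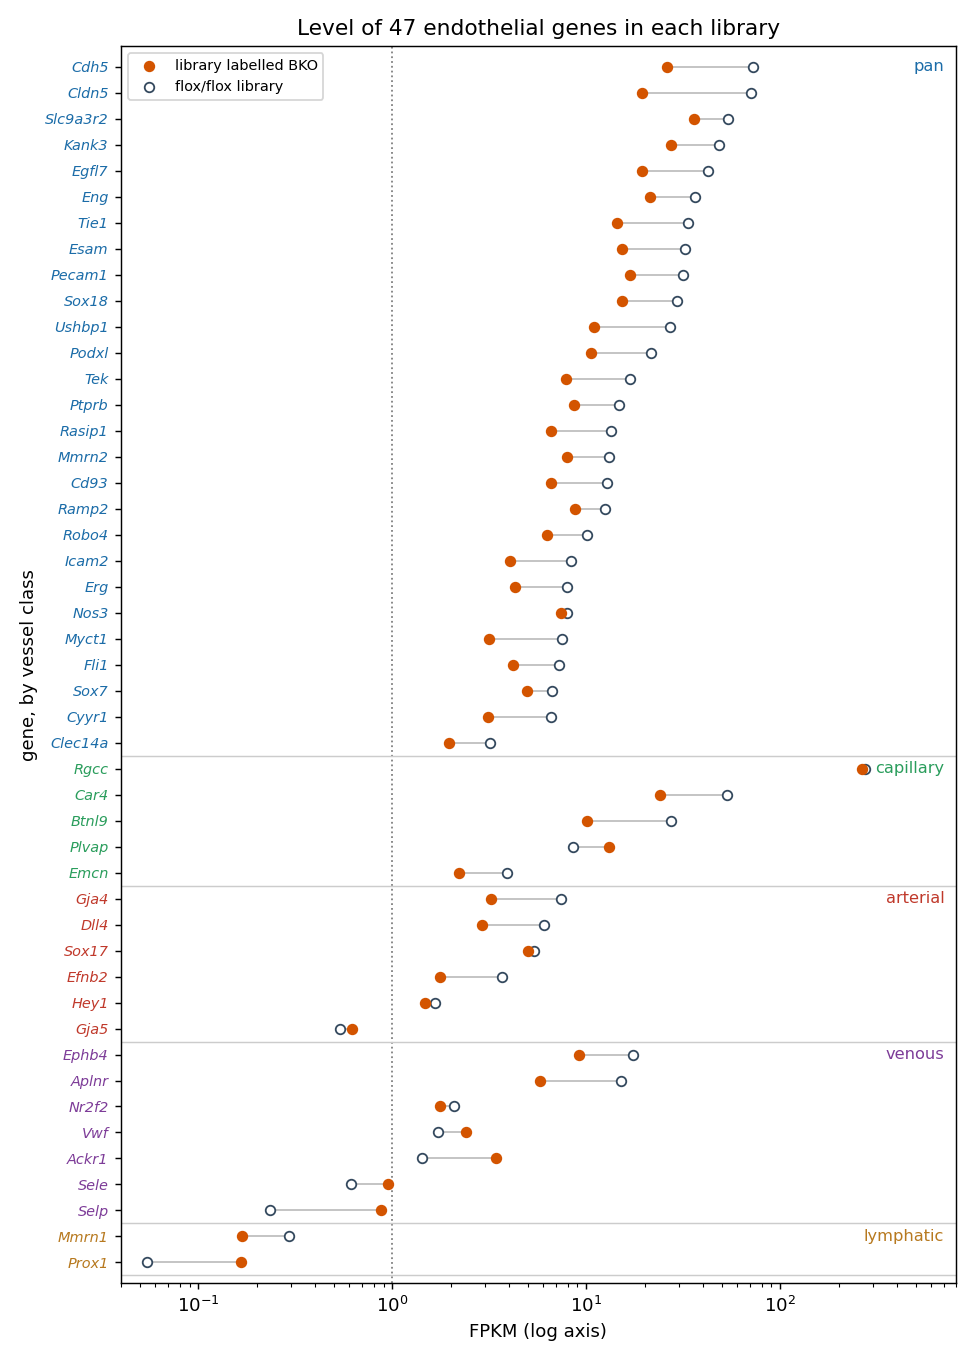
FPKM of each of the 47 genes (log axis) in the library labelled BKO (filled circles) and the flox/flox library (open circles), by vessel class, with 1 pooled library per genotype and a dotted line at 1 FPKM. All 27 pan-endothelial genes lie further left in the library labelled BKO (*Nos3* by little, and further right under TPM), and *Plvap*, *Gja5*, *Vwf*, *Ackr1*, *Sele*, *Selp* and *Prox1* lie further right.

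Junction and adhesion genes common to all endothelium included the 2 lowest ratios of the 47, those of *Cldn5* and *Cdh5*. *Cldn5*, the claudin of endothelial tight junctions (ENSMUSG00000041378, chromosome 16, 18776847 to 18778262 on the plus strand; GRCm38) stood at 19.4 FPKM in the library labelled BKO, against 70.6 in the flox/flox library, 3.64-fold lower, and its fragments could not be determined, so no interval is given. *Cdh5*, which encodes VE-cadherin, the adherens junction protein of endothelial cells (ENSMUSG00000031871, chromosome 8, 104101625 to 104144511 on the plus strand; GRCm38) stood at 26.1 FPKM in the library labelled BKO (2220 fragments), against 71.9 FPKM in the flox/flox library (5281 fragments), 2.75-fold lower (2.62 to 2.90). Only 1.40% of all genes above the filter had a lower log2 ratio than *Cldn5*, and 2.52% a lower one than *Cdh5*. *Esam*, an adhesion molecule of endothelial tight junctions, was at 15.3 FPKM in the library labelled BKO, against 32.2 in the flox/flox library, 2.11-fold lower (1.95 to 2.30). *Pecam1* (CD31), an adhesion molecule that platelets and leukocytes also carry, was at 16.7 FPKM in the library labelled BKO, against 31.4 in the flox/flox library, 1.88-fold lower (1.78 to 1.99). *Icam2*, another adhesion molecule shared with blood cells, was at 4.05 FPKM in the library labelled BKO, against 8.32 in the flox/flox library. The phosphatase gene *Ptprb*, whose product acts on VE-cadherin and TIE2, had a higher ratio than *Cdh5*, with intervals that do not overlap, at 8.62 FPKM in the library labelled BKO, against 14.7 in the flox/flox library, 1.71-fold lower (1.62 to 1.80). *Podxl*, a sialomucin of the luminal membrane, was 2.03-fold lower (1.88 to 2.18). *Rasip1*, which is needed for lumen formation, was 2.04-fold lower (1.81 to 2.30) but shares 42.9% of its exon bases with *Izumo1* and antisense models, so its level is uncertain.

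Receptors of the angiopoietin axis were lower together. *Tie1* was at 14.4 FPKM in the library labelled BKO (1435 fragments), against 33.4 FPKM in the flox/flox library (2873 fragments), 2.32-fold lower (2.18 to 2.47). *Tek*, which encodes the angiopoietin receptor TIE2, was at 7.90 FPKM in the library labelled BKO (753 fragments), against 16.9 FPKM in the flox/flox library (1390 fragments), 2.14-fold lower (1.95 to 2.34). The intervals of these 2 related receptors overlap. *Eng*, a coreceptor for TGF-beta and BMP9, was at 21.3 FPKM in the library labelled BKO, against 36.2 in the flox/flox library, 1.70-fold lower (1.60 to 1.81), and *Robo4*, a guidance receptor that steadies the vessel wall, was 1.62-fold lower (1.46 to 1.79). The lectin-like receptors *Cd93* and *Clec14a* both bind multimerin 2, the product of *Mmrn2*. *Cd93* was at 6.59 FPKM in the library labelled BKO, against 12.8 in the flox/flox library, *Clec14a* at 1.97 FPKM in the library labelled BKO, against 3.20 in the flox/flox library, and *Mmrn2* at 7.94 FPKM in the library labelled BKO, against 13.1 in the flox/flox library, so all 3 were lower, by 1.94-fold, 1.63-fold and 1.65-fold. *Ramp2*, the partner that makes the calcitonin receptor-like receptor bind adrenomedullin, was 1.43-fold lower (1.28 to 1.60), with 33.4% of its exon bases shared with *Vps25*.

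Of the transcription factors among the 47 genes, none was at least 2-fold lower, where 5.91% of all genes above the filter were. With so few factors, 0 lies near that share. *Tcf15*, a factor of a further list given below, was 2.57-fold lower. The 7 of 8 that passed the filter had a median log2 ratio of -0.42, with 0 at least 2-fold lower, against -1.01 and 7 of 11 junction and adhesion genes. Under TPM the medians were -0.089 for the transcription factors and -0.68 for the junction and adhesion genes, of which 2 were then at least 2-fold lower (3 with own fragment totals). These medians describe the lists, and their difference was not tested. The pan-endothelial *Sox18*, *Erg*, *Fli1* and *Sox7* had log2 ratios of -0.95, -0.89, -0.77 and -0.42. *Sox17*, *Hey1* and *Nr2f2*, of other classes, lay nearer 0, so the median depends on which factors are listed. *Erg* and *Fli1*, ETS factors that maintain endothelial identity, were close to one another. *Erg* was at 4.26 FPKM in the library labelled BKO, against 7.97 in the flox/flox library, 1.87-fold lower (1.62 to 2.17), and *Fli1*, which blood cells also express, at 4.18 FPKM in the library labelled BKO, against 7.19 in the flox/flox library, 1.72-fold lower with an interval wholly below a ratio of 1. The 3 SOXF genes, which act together in vessel development, were unevenly placed. *Sox18* was at 15.2 FPKM in the library labelled BKO (499 fragments), against 29.4 FPKM in the flox/flox library (833 fragments), 1.93-fold lower (1.73 to 2.16). *Sox7* was at 4.94 FPKM in the library labelled BKO (330 fragments), against 6.64 FPKM in the flox/flox library (383 fragments), 1.34-fold lower (1.16 to 1.56). *Sox17*, the SOXF gene enriched in arteries, was at 4.98 FPKM in the library labelled BKO (481 fragments), against 5.37 FPKM in the flox/flox library (448 fragments), a ratio of 0.927 (0.814 to 1.06) that crosses 1 and lies above 1 under TPM, at 1.17. The intervals of *Sox18* and *Sox7* do not overlap, nor do those of *Sox18* and *Sox17*. *Sox17* shares 16.8% of its exon bases with an antisense gene model.

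ETS factors bind a GGAA core, and promoters of endothelial genes are known for such sites. The windows searched were the 250 bases before each start that the RefSeq promoter table (GRCm38.p6) gives for a gene, 35 starts for the endothelial genes and 32851 in all. A gene counts as holding a match if any of its starts does. The table matched 29 of the 47 genes by symbol. The others were *Cdh5*, *Aplnr*, *Fli1*, *Podxl*, *Cd93*, *Pecam1*, *Nos3*, *Hey1*, *Sox7*, *Plvap*, *Vwf*, *Icam2*, *Ramp2*, *Sox18*, *Esam*, *Mmrn2*, *Ptprb* and *Sox17*. The letters CAGGAAG, searched on both strands, were found for 10 of these 29 genes (34.5%), and for 12.1% of all 27025 genes in the table. The shorter AGGAAG, which lies inside it, was found for 17 (58.6%) and 32.3% of all genes, and CCGGAAG, another ETS form, for 1 (3.45%) and 7.83%. The overlapping forms ACAGGAA and AGGAAGT were found for 7 and 4 of the 29 genes, against 8.13% and 8.80% of all genes. The SOX letters AACAAT were found for 5, ACAATG for 2 and ACAATGG for 0, where all genes gave 10.9%, 12.2% and 3.46%. The NF-kB consensus was found for 0 of the 29 and for 0.414% of all genes. The 9 sets of letters were chosen with the values of these libraries known, and a match is a description of the letters and not of binding. The 6 windows of 30 bases with CAGGAAG in capitals (or CTTCCTG, the same letters on the other strand) are shown 5′ to 3′ on the gene's strand, since they stand before genes of both directions. The *Egfl7* window precedes an inner start of that gene, which has further matches before its first start. The *Ackr1* window also precedes an inner start, and it lies within the annotated span of that gene (173331886 to 173333750). *Ushbp1*, *Rasip1*, *Egfl7* and *Emcn* were lower in the library labelled BKO, and *Ackr1* and *Sele* had ratios above 1.
Ushbp1: gggtaggggggCTTCCTGtttcccagcccc (chr8:71395847-71395876, minus strand)
Rasip1: ccctccccgctCTTCCTGccgggtttcctc (chr7:45627435-45627464, plus strand)
Egfl7: gagaacacacaCAGGAAGtccggcgggaag (chr2:26583773-26583802, plus strand)
Emcn: aagaagggtctCTTCCTGttcaaatcccat (chr3:137340893-137340922, plus strand)
Ackr1: caacttcaaaaCAGGAAGccccaggatggt (chr1:173333618-173333647, minus strand)
Sele: cctatgactcaCAGGAAGccagctccccta (chr1:164048157-164048186, plus strand)
Genes with this match and genes without it were found on both sides of a ratio of 1. *Btnl9*, *Cyyr1*, *Erg* and *Robo4* also hold it.

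On the deposited scale, secreted, enzymatic and other pan-endothelial genes were 1.5- to 2.5-fold lower, apart from nitric oxide synthase. Under TPM, *Egfl7*, *Ushbp1*, *Myct1* and *Cyyr1* stayed in this range. *Mmrn2*, *Slc9a3r2* and *Kank3* left it, at 1.31-, 1.19- and 1.40-fold lower. *Egfl7*, which encodes a matrix protein of sprouting vessels and hosts miR-126, was at 19.3 FPKM in the library labelled BKO (1401 fragments), against 42.4 FPKM in the flox/flox library (2655 fragments), 2.19-fold lower (2.06 to 2.34). It shares 11.2% of its exon bases with other gene models, among them *Agpat2* on the opposite strand. *Ushbp1* was at 10.9 FPKM in the library labelled BKO (1426 fragments), against 26.8 FPKM in the flox/flox library (3030 fragments), 2.46-fold lower (2.31 to 2.62). *Myct1* was at 3.14 FPKM in the library labelled BKO, against 7.46 in the flox/flox library and *Cyyr1* at 3.13 FPKM in the library labelled BKO, against 6.59 in the flox/flox library, both at least 2-fold lower. *Slc9a3r2*, a PDZ scaffold that other tissues also express, was 1.51-fold lower (1.41 to 1.61), and *Kank3* was at 27.4 FPKM in the library labelled BKO, against 48.4 in the flox/flox library. *Nos3*, the endothelial nitric oxide synthase that relaxes vessels, had the highest ratio of the 27 pan-endothelial genes. It was at 7.44 FPKM in the library labelled BKO (622 fragments), against 7.92 FPKM in the flox/flox library (572 fragments), a ratio of 0.939 (0.837 to 1.05), which crosses 1 and lies above 1 under TPM, at 1.19. Its exons share 32.3% of their bases with *Atg9b* and another model on the opposite strand, and strand was not stated for the counting, so its value is uncertain.

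Capillary genes went 3 ways. *Btnl9*, a butyrophilin-like gene of capillary endothelium, was at 10.1 FPKM in the library labelled BKO (1233 fragments), against 27.3 FPKM in the flox/flox library (2884 fragments), 2.71-fold lower (2.53 to 2.90). *Car4*, the membrane-bound carbonic anhydrase of capillaries, was at 24.1 FPKM in the library labelled BKO (959 fragments), against 52.9 FPKM in the flox/flox library (1818 fragments), 2.20-fold lower (2.03 to 2.38). *Emcn*, a sialomucin of capillaries and veins, was at 2.19 FPKM in the library labelled BKO, against 3.89 in the flox/flox library, 1.78-fold lower (1.50 to 2.10). *Rgcc*, a cell-cycle regulator and the most abundant of the 47 genes in both libraries, was at 265 FPKM in the library labelled BKO (4924 fragments), against 275 FPKM in the flox/flox library (4405 fragments), a ratio of 0.965 (0.927 to 1.01). Its interval includes 1, and its ratio under TPM was above 1, at 1.22. *Plvap*, which forms the diaphragms of fenestrated capillaries and venules, was the only capillary gene with a ratio above 1 on the deposited scale, at 13.2 FPKM in the library labelled BKO (529 fragments), against 8.55 FPKM in the flox/flox library (297 fragments), 1.54-fold higher (1.33 to 1.78). *Rgcc* alone made up most of the summed capillary level, 315 FPKM in the library labelled BKO, against 367 in the flox/flox library, and it is also expressed outside endothelium. The median log2 ratio of the 5 genes was -0.80.

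Among arterial genes, on the deposited scale, 3 were about 2-fold lower and 3 had intervals that crossed 1. *Gja4*, the gap junction protein connexin 37, was at 3.23 FPKM in the library labelled BKO (110 fragments), against 7.37 FPKM in the flox/flox library (217 fragments), 2.28-fold lower (1.81 to 2.90). *Dll4*, the Notch ligand of arteries and tip cells, was at 2.91 FPKM in the library labelled BKO (227 fragments), against 6.01 FPKM in the flox/flox library (405 fragments), 2.07-fold lower (1.75 to 2.44). *Efnb2*, the ligand that marks arteries, was at 1.76 FPKM in the library labelled BKO (244 fragments), against 3.67 FPKM in the flox/flox library (440 fragments), 2.09-fold lower (1.78 to 2.45). Under TPM, *Gja4*, *Dll4* and *Efnb2* were 1.81-, 1.64- and 1.65-fold lower. At least 2-fold lower were 3 arterial genes on the deposited scale, where 5.91% of all genes were, and 0 under TPM, where 3.33% were. *Hey1*, a target of Notch that other cells also express, had a ratio near 1, at 1.47 FPKM in the library labelled BKO (97 fragments), against 1.66 FPKM in the flox/flox library (95 fragments), a ratio of 0.882 (0.658 to 1.18) and 1.11 under TPM. With *Sox17*, given above, and *Gja5*, this made 3 arterial genes near a ratio of 1. *Gja5* (connexin 40) was below the filter, at 0.619 FPKM in the library labelled BKO (72 fragments), against 0.538 FPKM in the flox/flox library (54 fragments), a ratio of 1.15 (0.798 to 1.67), so a difference was not detectable at this depth. The 5 arterial genes above the filter had a median log2 ratio of -1.02, a value that rests on which low genes are counted, at -0.60 when *Gja5* is included.

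Venous genes lay on both sides of a ratio of 1. The intervals of *Aplnr*, *Ephb4* and *Nr2f2* lay below 1, those of *Ackr1*, *Vwf* and *Selp* above 1, and that of *Sele* included 1. *Aplnr*, the apelin receptor of veins and growing vessels, was at 5.74 FPKM in the library labelled BKO (430 fragments), against 15.0 FPKM in the flox/flox library (973 fragments), 2.62-fold lower (2.34 to 2.94). *Ephb4*, the venous receptor of ephrin-B2, was at 9.16 FPKM in the library labelled BKO (860 fragments), against 17.4 FPKM in the flox/flox library (1415 fragments), 1.91-fold lower (1.75 to 2.08), so that both this receptor and its arterial ligand were at about the same ratio, with overlapping intervals. *Nr2f2* (COUP-TFII), a venous transcription factor also made by mesenchymal cells, was at 1.76 FPKM in the library labelled BKO, against 2.09 in the flox/flox library, 1.19-fold lower (1.01 to 1.39), and above 1 under TPM, at 1.06. The other 4 venous genes had ratios above 1. *Ackr1*, a chemokine-binding receptor of venules that red cells also carry (ENSMUSG00000037872, chromosome 1, 173331886 to 173333750 on the minus strand; GRCm38) stood at 3.41 FPKM in the library labelled BKO (97 fragments), against 1.43 FPKM in the flox/flox library (35 fragments), 2.39-fold higher (1.61 to 3.63). *Vwf*, the clotting factor stored in endothelial granules, was at 2.39 FPKM in the library labelled BKO (778 fragments), against 1.72 FPKM in the flox/flox library (483 fragments), 1.39-fold higher (1.24 to 1.56). *Selp* and *Sele*, the selectins that slow leukocytes on inflamed venules, were both below the filter. *Selp*, which platelets also carry, was at 0.873 FPKM in the library labelled BKO (78 fragments), against 0.233 FPKM in the flox/flox library (18 fragments), 3.74-fold higher (2.22 to 6.64). *Sele*, an adhesion molecule of activated endothelium, was at 0.950 FPKM in the library labelled BKO (56 fragments), against 0.609 FPKM in the flox/flox library (31 fragments), a ratio of 1.56 (0.989 to 2.50), and its interval crosses 1. *Ackr1*, *Selp* and *Sele* rest on under 100 fragments a library. *Ackr1* shares 25.7% of its exon bases with *Cadm3* on the same strand, and *Selp* 14.1% with antisense models, so both are uncertain.

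The 2 lymphatic genes were near the limit of detection. *Prox1*, the transcription factor of lymphatic identity, which muscle and liver also express, was at 0.165 FPKM in the library labelled BKO (28 fragments), against 0.0545 FPKM in the flox/flox library (8 fragments), 3.02-fold higher (1.34 to 7.67). *Mmrn1*, a matrix protein of lymphatic endothelium and platelets, was at 0.168 FPKM in the library labelled BKO (20 fragments), against 0.292 FPKM in the flox/flox library (30 fragments), a ratio of 0.576 (0.310 to 1.05), which crosses 1. Neither passed the filter, and they had ratios on opposite sides of 1, so no direction can be given for the class.

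**Figure D2:**
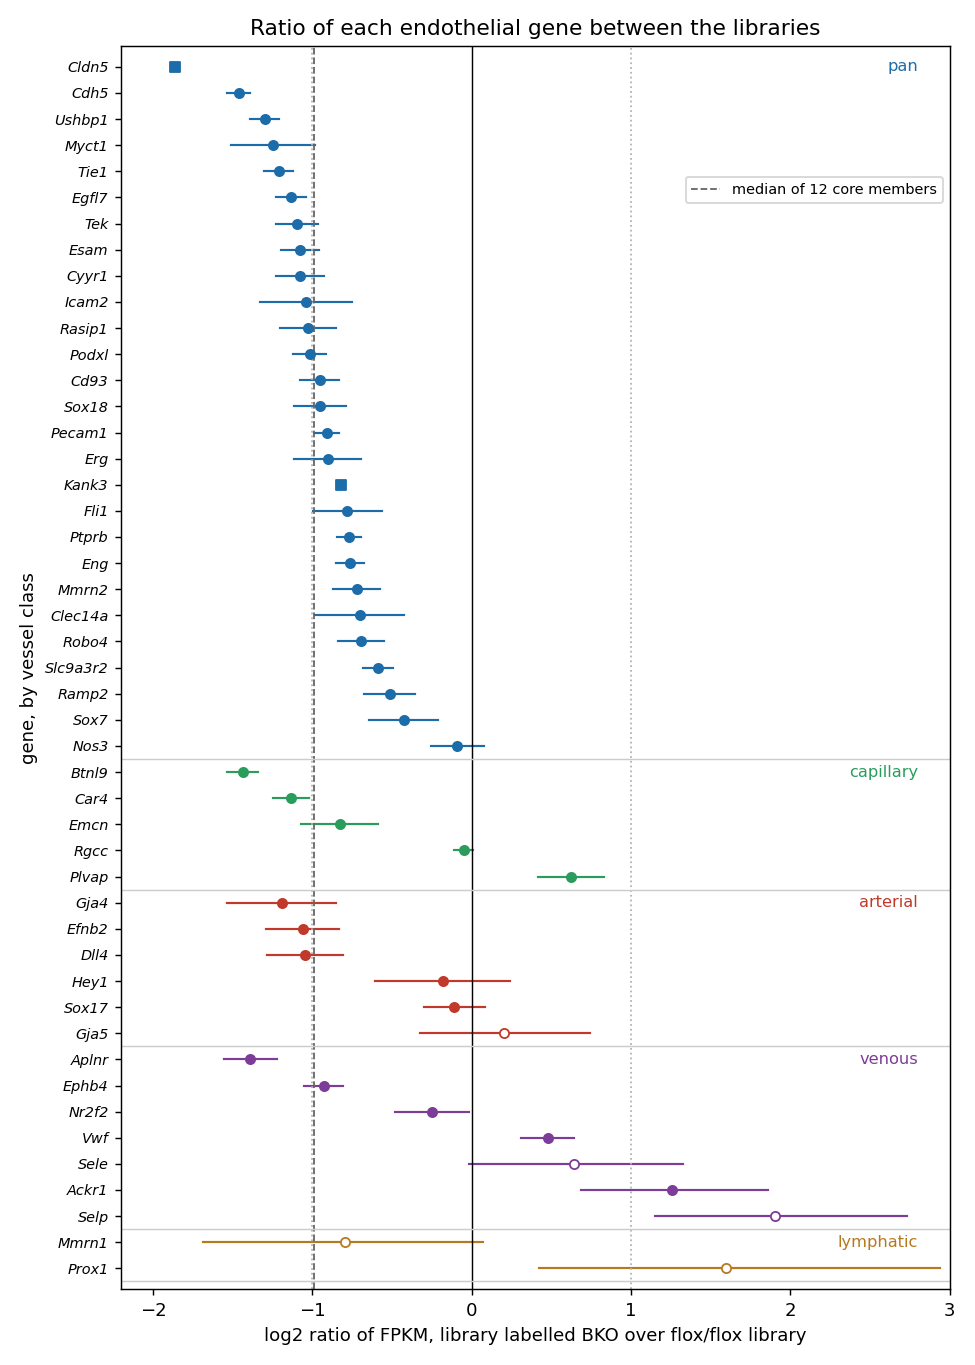
The log2 ratio of FPKM, library labelled BKO over flox/flox library, for each gene by vessel class, with bars for the 95% counting interval. Squares are genes with undetermined fragments (no interval), open symbols are genes below a mean of 1 FPKM, dotted lines mark 2-fold and the dashed line marks the median of 12 core genes. Most genes cluster near the dashed line, and *Nos3*, *Rgcc*, *Sox17*, *Hey1* and *Nr2f2* lie near 0 (above 0 under TPM).

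To set the scaling of the libraries aside, each gene was compared with a core of 12 endothelial genes that have little expression elsewhere (*Cdh5*, *Cldn5*, *Esam*, *Ptprb*, *Tek*, *Tie1*, *Robo4*, *Clec14a*, *Erg*, *Egfl7*, *Mmrn2* and *Nos3*). All 12 were above 1 FPKM in both libraries, and their median log2 ratio was -0.98. Taking the log2 ratio of a gene minus this median cancels the size factor of either library. The 0.1 FPKM added leaves some dependence on it, largest for genes at low FPKM. Relative to the core, *Cldn5* was at 0.545 of the ratio, *Cdh5* at 0.718, *Btnl9* at 0.733 and *Aplnr* at 0.761. At the other end, among genes above the filter, *Ackr1* stood 4.54-fold above the core median, *Plvap* 3.02-fold, *Vwf* 2.70-fold, *Rgcc* 1.91-fold, *Nos3*, itself a core gene, 1.86-fold and *Sox17* 1.83-fold. Of the genes below the filter, *Selp* stood 5.76-fold above it, *Prox1* 3.38-fold, *Sele* 2.92-fold and *Gja5* 2.23-fold, on few fragments. These relative values use log2 ratios with 0.1 FPKM added, unlike the folds given for each gene above. For genes at low FPKM with ratios above 1, the addition makes the values smaller. The log2 ratio of *Prox1* was 0.78 with it and 1.60 without. Within 0.1 of the core median on the log2 scale lay 12 of the 42, against 2.07% of all genes. They were *Pecam1*, *Esam*, *Icam2*, *Podxl*, *Rasip1*, *Cd93*, *Erg*, *Sox18* and *Cyyr1* among the pan-endothelial genes, the arterial *Dll4* and *Efnb2* and the venous *Ephb4*, of which *Esam* and *Erg* are core genes that set the median.

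How many genes passed 2-fold depended on the scaling. The summed FPKM of all genes differed between the libraries, 356239 in the library labelled BKO and 449531 in the flox/flox library, and mitochondrial transcripts made up 23.0% of it in the library labelled BKO and 38.3% in the flox/flox library. TPM, which scales both to the same sum, moved the median of all genes by 0.33 on the log2 scale, and scaling each library to its own fragments moved it by 0.11. With own fragment totals, 10 endothelial genes were at least 2-fold lower, where 4.77% of all genes were, and 36 of the 42 were below 0, where 39.7% of all genes were. Under TPM, 4 were at least 2-fold lower (*Cldn5*, *Cdh5*, *Btnl9* and *Aplnr*), where 3.33% of all genes were. The median of the endothelial genes remained below 0 under TPM, at -0.58, and that of the pan-endothelial genes at -0.61. On this scale 34 of the 42 had a log2 ratio below 0, against 24.9% of all genes, and *Ackr1* alone was at least 2-fold higher on both scales, where 12.5% of all genes were with own totals and 17.1% under TPM. Among the 10652 protein-coding genes alone, 3.23% were at least 2-fold lower and 11.3% at least 2-fold higher on the deposited scale.

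**Figure D3:**
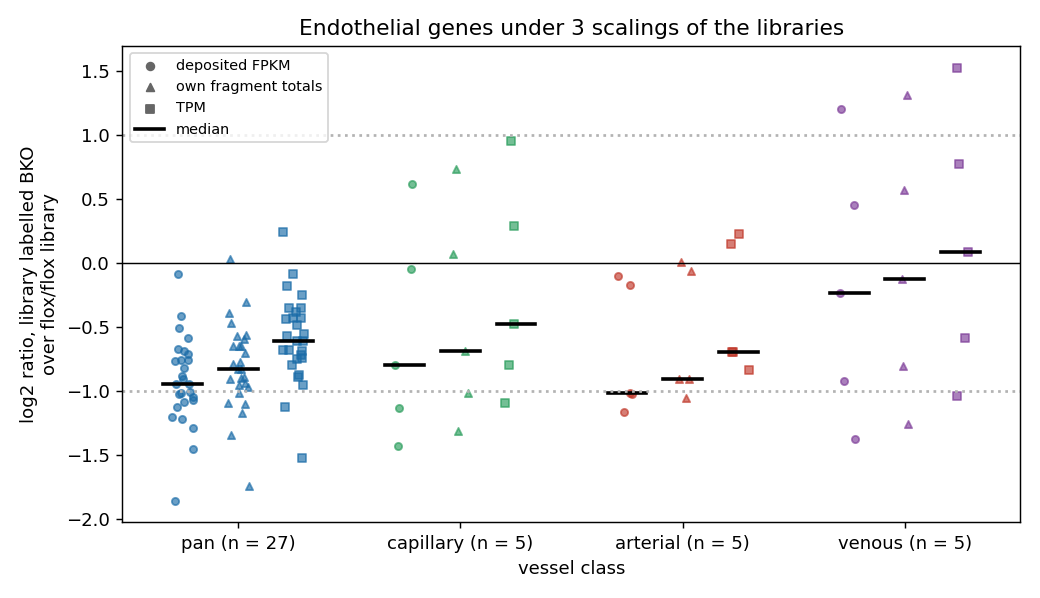
Log2 ratio, library labelled BKO over flox/flox library, for members above the filter of 1 FPKM in 4 vessel classes, under deposited FPKM (circles), own fragment totals (triangles) and TPM (squares), with a line for each median. The median of pan-endothelial genes is -0.94, -0.83 and -0.61 under the 3 scalings, and that of the venous genes is -0.24 on the deposited scale and 0.083 under TPM.

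Further endothelial genes outside the 47 lay mostly below 0, and a list of further venous and cytokine-induced genes mostly above. Of 40 further endothelial genes above the filter, 12 were at least 2-fold lower and 2 at least 2-fold higher, with a median of -0.76, where 5.91% and 11.0% of all genes were. Under TPM 4 were lower and 4 higher by that much, where 3.33% and 17.1% of all genes were, and the median was -0.43. With own fragment totals 5 were lower and 2 higher, where 4.77% and 12.5% of all genes were. *Pcdh12*, a protocadherin of endothelial junctions, had the lowest ratio, 3.49-fold lower (2.85 to 4.31), and *Grrp1* the highest, 4.30-fold higher (3.77 to 4.93). *Ly6c1*, the most abundant, was at 95.5 FPKM in the library labelled BKO, against 101 in the flox/flox library, a ratio that lies above 1 under TPM, and it has a near-identical paralog, so its level is uncertain. All 7 further capillary genes were lower, with a median of -0.92, among them the water channel *Aqp1*, 1.84-fold lower (1.78 to 1.90), and the transcription factor *Tcf15*, 2.57-fold lower (2.25 to 2.94). Of 5 further arterial genes, 2 were at least 2-fold lower on the deposited scale, where 5.91% of all genes were. With own fragment totals 1 was, where 4.77% of all genes were, and under TPM 0 were, where 3.33% were. *Sema3g* was 2.07-fold lower (1.89 to 2.26). *Unc5b* had the lowest ratio of the 5, 2.55-fold lower (2.05 to 3.17), and *Fbln5* the highest, a ratio of 0.993 (0.854 to 1.16). Apart from *Sema3g* and *Unc5b*, the other 3 were below 0 on the deposited scale but above 0 under TPM. Of 5 further venous and cytokine-induced genes, 4 were at least 2-fold higher, where 11.0% of all genes were. Of the venous genes above the filter, *Ackr1* and *Vwf* lay on the same side on the deposited scale, and *Aplnr*, *Ephb4* and *Nr2f2* on the other. The further list is not specific to veins, so it gives no direction for venous endothelium. *Lrg1*, a secreted glycoprotein of activated venules that other cells also make, was at 220.2 FPKM in the library labelled BKO (6022 fragments), against 72.9 FPKM in the flox/flox library (1721 fragments), 3.02-fold higher (2.86 to 3.19). *Icam1* and *Vcam1*, the ligands of leukocyte integrins, were 2.62-fold higher (2.06 to 3.36) and 2.50-fold higher (2.02 to 3.10), and *Nrp2* was 2.09-fold lower (1.98 to 2.21). Of 4 further lymphatic genes above the filter, 2 had a log2 ratio above 0 and 2 below, with a median of 1.18. At least 2-fold higher were 2, where 11.0% of all genes were, and lower 1, where 5.91% were. *Lyve1*, which macrophages share, was 15.2-fold higher (10.4 to 23.2). *Ccl21a* was at 0.123 FPKM in the library labelled BKO (1 fragment), against 1.99 in the flox/flox library (14 fragments), 16.2-fold lower with a wide interval (2.47 to 685). *Icam1* and *Vcam1* were named after their values were seen.

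The levels of other cell types' markers also differed between the libraries, and their part in the endothelial values was not tested. Pericyte and smooth muscle genes (13 of 14 genes above the filter) had a median log2 ratio of -0.85 and a summed level of 106 FPKM in the library labelled BKO, against 216 in the flox/flox library. At least 2-fold lower were 6 of them, where 5.91% of all genes were. Under TPM 2 were, against 3.33% of all genes, and with own fragment totals 4, against 4.77%. *Rgs5*, the most abundant pericyte marker, was 2.47-fold lower (2.37 to 2.58) and *Kcnj8* 3.50-fold lower (3.06 to 4.02), and *Cspg4* was 1.34-fold higher (1.26 to 1.42). Brown adipocyte genes (9 of 9 genes above the filter) had a median log2 ratio of -0.83 and a summed level of 4022 FPKM in the library labelled BKO, against 8834 in the flox/flox library, and *Elovl3*, a fatty acid elongase, went against that median, 5.63-fold higher, with its fragments not determined. Macrophage genes (11 of 12 genes above the filter) had a median log2 ratio of 2.17 and a summed level of 567 FPKM in the library labelled BKO, against 111 in the flox/flox library. All 11 were at least 2-fold higher, where 11.0% of all genes were. Myeloid cells share *Pecam1*, *Fli1*, *Icam2* and *Cd93* with endothelium. Skeletal muscle genes (13 of 14 genes above the filter) had a median log2 ratio of 5.93 and a summed level of 3911 FPKM in the library labelled BKO, against 60.5 in the flox/flox library, with *Tnnc2* at 0 in both. Muscle has vessels of its own and expresses *Prox1*. Fibroblast and progenitor genes (9 of 9 genes above the filter) had a median log2 ratio of 1.83 and a summed level of 633 FPKM in the library labelled BKO, against 204 in the flox/flox library. Red cell genes (5 of 7 genes above the filter) had a median log2 ratio of -0.55 and a summed level of 567 FPKM in the library labelled BKO, against 834 in the flox/flox library. Among platelet genes, *Pf4* alone passed the filter and was 3.82-fold higher (3.06 to 4.82). The other 6 platelet genes summed to 2.04 FPKM in the library labelled BKO, against 3.50 in the flox/flox library, and the interval lay below 1 for 2 of them (*Itga2b* and *Gp1ba*), above 1 for 0, and included 1 for *Ppbp*, *Gp9*, *Gp1bb* and *Treml1*. Mesothelial genes summed to 2.65 FPKM in the library labelled BKO, against 2.16 in the flox/flox library, with *Upk3b* at 0 in both and *Msln* and *Wt1* at 0 in the flox/flox library. General adipocyte genes had a median of 0.13 and summed to 6918 FPKM in the library labelled BKO, against 5276 in the flox/flox library. Leaving out the 19 endothelial genes that blood, muscle, adipocyte, mesothelial or stromal cells also express gave a median of -1.02 over 26 genes.

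**Figure D4:**
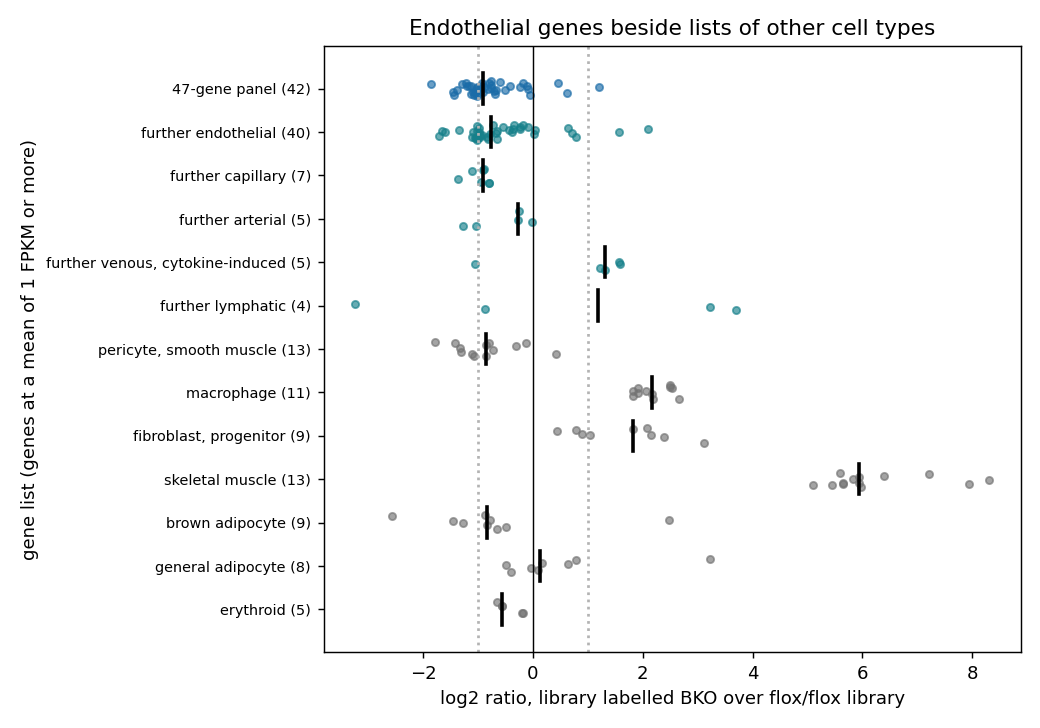
Log2 ratio, library labelled BKO over flox/flox library, for genes above the filter of 1 FPKM in the 47-gene panel, in further endothelial lists and in lists of other cell types, with a line at each median and the number of genes in parentheses (dotted lines, 2-fold). The panel's median is -0.91, that of pericyte and smooth muscle genes -0.85, of macrophage genes 2.17 and of skeletal muscle genes 5.93.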

How the data were processed

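Total RNA of iBAT was extracted with TriPure, pooled from 4 mice per genotype and sequenced as paired ends. The authors aligned reads to Ensembl GRCm38 with TopHat2, counted them per gene with HTSeq (0.6.1, all named in the submitters' processing notes). The values deposited by the authors are FPKM, with 1 value for each gene in each library. The step to FPKM, strand and multi-mapped reads are not given in the sources used here. Groups follow the genotype label.

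Names and coordinates came from GENCODE M21 (GRCm38), matched by identifier for 52489 of 52768 genes. For each library 1 constant was found that turns FPKM times union exon length into whole fragments (within 0.001) for 22405 of 24856 genes above 0, and 1001 more did so at a single other length within 50% of the annotated one. This gave fragments and exact Clopper-Pearson 95% intervals for ratios. The flox/flox FPKM were scaled to 92.3% of that library's fragments, those of the library labelled BKO to its own total (inferred from the values). Log2 ratios used a pseudocount of 0.1 FPKM and a filter of a mean of at least 1 FPKM. With 1 library per group, no test and no count model was run. The alternatives were a pseudocount of 1 or of 0.01 FPKM, a filter of 5 FPKM or none, TPM, median centring, own fragment totals, removal of mitochondrial genes and of genes other cells express, and, chosen after seeing the data, removal of genes that share over 10% of exon bases. The genes, vessel classes and lists were chosen with earlier results of these data known. All 47 genes are named. A gene of the further lists could be named if it was the most abundant or the most changed in either direction of its list, and not all of these are. *Icam1*, *Vcam1*, the other platelet genes and genes at 0 were named after their values were seen. A further platelet gene is not reported here. The recovery of fragments and the coverage of the intervals were tested on simulated data. Python 3.11.15, numpy 2.4.6, scipy 1.17.1, pandas 2.3.3 and matplotlib 3.10.9 were used.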

Additional observations from a re-analysis of the deposited data

How the results depend on the processing

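No paired analysis was possible because each genotype has 1 library, and for the same reason no library could be left out. Under TPM the medians moved to -0.58 for all endothelial genes, -0.61 for pan-endothelial, -0.48 for capillary, -0.69 for arterial and 0.083 for venous genes. The arterial median was -0.76 with a pseudocount of 1 FPKM, -0.60 without a filter and -0.64 at 5 FPKM (2 genes). The venous median was 0.45 without a filter, -1.15 at 5 FPKM, -1.37 without genes that other cells express (*Aplnr* alone) and -0.58 without genes that share over 10% of exon bases, so it has no stable direction. The count of genes at least 2-fold lower was 18 as reported, 11 with a pseudocount of 1 FPKM, 10 with own fragment totals and 4 under TPM. The count at least 2-fold higher was 1, 0 with a pseudocount of 1 FPKM, 2 without a filter, and 0 at 5 FPKM, 0 without genes that other cells express and 0 without overlapping genes. The medians of all, pan-endothelial, capillary and arterial genes were below 0 under each alternative run. Neither lymphatic gene passed the filter, so that class has no median. Depth limits *Ackr1*, *Hey1*, *Gja5*, *Sele*, *Selp*, *Prox1* and *Mmrn1*, each under 100 fragments in both libraries.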

Other observations

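The endothelial genes differed over a wide range of levels within each library. *Rgcc* was first of the 47 in both libraries. In the library labelled BKO *Slc9a3r2* and *Kank3* came next, at 35.8 and 27.4 FPKM, and *Cldn5* was 7th, whereas in the flox/flox library *Cdh5* and *Cldn5* came next, at 71.9 and 70.6 FPKM. *Plvap* was 13th in the library labelled BKO and 25th in the flox/flox library, and *Ackr1* was 32nd in the library labelled BKO and 42nd in the flox/flox library. The pan-endothelial genes summed to 318 FPKM in the library labelled BKO and 647 FPKM in the flox/flox library, 2.03-fold lower.

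Some of the endothelial genes are neighbours. *Ushbp1* and *Plvap* lie 102 kb apart on chromosome 8 (GRCm38) and had log2 ratios of -1.29 and 0.62. *Sele* and *Selp*, 57.6 kb apart on chromosome 1, had 0.57 and 1.55, both below the filter and with overlapping intervals. *Robo4* and *Esam*, 113 kb apart on chromosome 9, had -0.69 and -1.07. *Icam2* and *Pecam1*, 266 kb apart on chromosome 11, had -1.02 and -0.91.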
